A study of Zea mays with 17 samples.

Results

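The mitochondrial protein-coding genes and reading frames of maize were taken as all rows of the count table whose identifier starts with ZeamMp, and they numbered 175 of 46430 rows. No measured value entered this rule, though earlier results of these data were known when it was set. A further 33 mitochondrial rows for ribosomal and transfer RNA were kept apart, and 44146 rows were nuclear genes. By their symbols, the 175 members held 6 genes for complex I, 1 for complex III, 3 for complex IV, 6 for ATP synthase, 4 for cytochrome c maturation, 14 for ribosomal proteins (5 of them of plastid origin), 1 maturase, 138 unnamed reading frames (orf) and 2 others. Of all members, 17 had no count in any library, 36 had 1 to 16 counts in all 17 libraries together, and 39 had a count in every library.

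The libraries came from greenhouse-grown plants of the maize inbred line W23 bz2, called wild type in the labels, whose anthers were sorted by length into 2.0 mm and 1.5 mm classes. Cells of 3 kinds were cut from sections by laser capture: tapetum (TAP, the layer that surrounds and feeds the meiotic cells), meiocytes (ME, the cells that go through meiosis) and other somatic cells (OSC). Fixed whole anthers (FA) were measured beside them. Libraries were made by CEL-seq2, which primes on poly(A) tails and counts the 3′ end of transcripts. The groups were TAP 2.0 mm, TAP 1.5 mm, ME 2.0 mm, ME 1.5 mm, OSC 2.0 mm, OSC 1.5 mm and FA 2.0 mm with 2 libraries each, and FA 1.5 mm with 3 libraries. All groups share the line and the allele, and the labels do not say how many anthers or plants went into a library or whether replicates came from separate plants, so the p-values measure only the spread between these libraries.

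Plant mitochondrial genomes encode core subunits of the respiratory chain, namely NADH dehydrogenase (complex I, nad genes), apocytochrome b (complex III, cob) and cytochrome c oxidase (complex IV, cox genes), as well as subunits of ATP synthase (atp genes). They also encode proteins that attach haem to c-type cytochromes (ccm genes), ribosomal proteins (rps, rpl) and an intron maturase (mat-r), while most subunits of the same complexes come from the nucleus. In plant mitochondria a poly(A) tail marks RNA for decay, so poly(A)-primed counts of these genes need not follow their full-length mRNA. Anthers are known for a high demand on mitochondria, and the tapetum is the layer in which the defects of cytoplasmic male sterility often appear.

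Library totals ran from 280760 counts (OSC 1.5 mm replicate 2) to 4428287 counts (FA 2.0 mm replicate 1). A count of 0 allows up to 3 counts, which is 10.7 counts per 1000000 counts (CPM) in the smallest library and 0.677 CPM in the largest, for counting error only. The defining markers of tapetum and meiocytes could not be checked, because 7 of the 12 markers were found by symbol in the name table and 0 of these matched a row. The ME libraries did not pair by label. Over log2 CPM of all rows, ME 1.5 mm replicate 2 had a Pearson correlation of 0.863 with ME 2.0 mm replicate 1 and 0.759 with ME 1.5 mm replicate 1. ME 2.0 mm replicate 1 likewise had only 0.771 with ME 2.0 mm replicate 2. Which library stands apart cannot be told, so ME results at both lengths carry this doubt. Results on ME at 1.5 mm are given with and without ME 1.5 mm replicate 2 where leaving it out changes a count.

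The summed ZeamMp rows were 9.25-fold lower in TAP at 2.0 mm than at 1.5 mm. They held 2261 and 3149.9 CPM in the TAP 2.0 mm libraries, against 25585 and 24463 CPM in the TAP 1.5 mm libraries. ME held 15971 and 26782 CPM at 2.0 mm and 33504 and 15220.4 CPM at 1.5 mm, so the lengths overlapped. OSC held 4798 and 4645 CPM at 2.0 mm, against 11570.0 and 14906 CPM at 1.5 mm, which is 2.80-fold lower without overlap. FA overlapped between lengths, with 3761 and 3787 CPM at 2.0 mm and 4009 (replicate 1), 3839.8 (replicate 2) and 3284 CPM (replicate 3) at 1.5 mm. At 2.0 mm the order of the group means was ME (21376 ± 7644 CPM), OSC (4722 ± 108), FA (3774 ± 18.1) and TAP (2706 ± 628; SD, n = 2 each), and no neighbours in this order overlapped. At 1.5 mm TAP (25024 ± 793 CPM, n = 2) and ME (24362 ± 12928, n = 2) overlapped, and OSC (13238 ± 2359, n = 2) and FA (3711 ± 379, n = 3) lay below both. Without ME 1.5 mm replicate 2, the remaining ME 1.5 mm library (33504 CPM) was above both TAP 1.5 mm and both ME 2.0 mm libraries. These sums are given without a test, since 2 libraries against 2 cannot give an exact permutation p under 0.333. In such libraries, fewer mitochondria, less RNA per mitochondrion and a change in other RNA cannot be told apart, nor, in whole anthers, fewer cells of a type and less RNA per cell.

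The mitochondrial ribosomal RNA rows, which took no part in the choice of members, were likewise lower at 2.0 mm in TAP and OSC. They held 7024 and 6291 CPM in TAP 2.0 mm, against 71723 and 81327 CPM in TAP 1.5 mm. In OSC they held 6179 and 8425 CPM at 2.0 mm, against 28426 and 19960.1 CPM at 1.5 mm. The ratio of ZeamMp counts to ribosomal RNA counts was 0.411 ± 0.126 in TAP 2.0 mm and 0.329 ± 0.0395 in TAP 1.5 mm, while it was 0.713 ± 0.133 in ME 2.0 mm and 0.812 ± 0.0497 in ME 1.5 mm (SD, n = 2 each). Both sums were thus lower in TAP at 2.0 mm, and the ratio was higher in each ME library than in each TAP library. Between cell types the sums did not always move together. At 1.5 mm the ribosomal RNA rows averaged 76525 CPM in TAP and 29575 CPM in ME, whereas the ZeamMp sums of these groups overlapped. Library depth moved with length in TAP as well: the TAP 2.0 mm libraries had 2657831 and 3230264 counts and the TAP 1.5 mm libraries 495100 and 501897. In OSC depth was also higher at 2.0 mm, with 1505065 and 2635680 counts against 815385 and 280760 at 1.5 mm. In ME it was lower at 2.0 mm, with 974064 and 559302 counts against 2329806 and 2795716. The part of depth in these results was not tested.

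**Figure D1:**
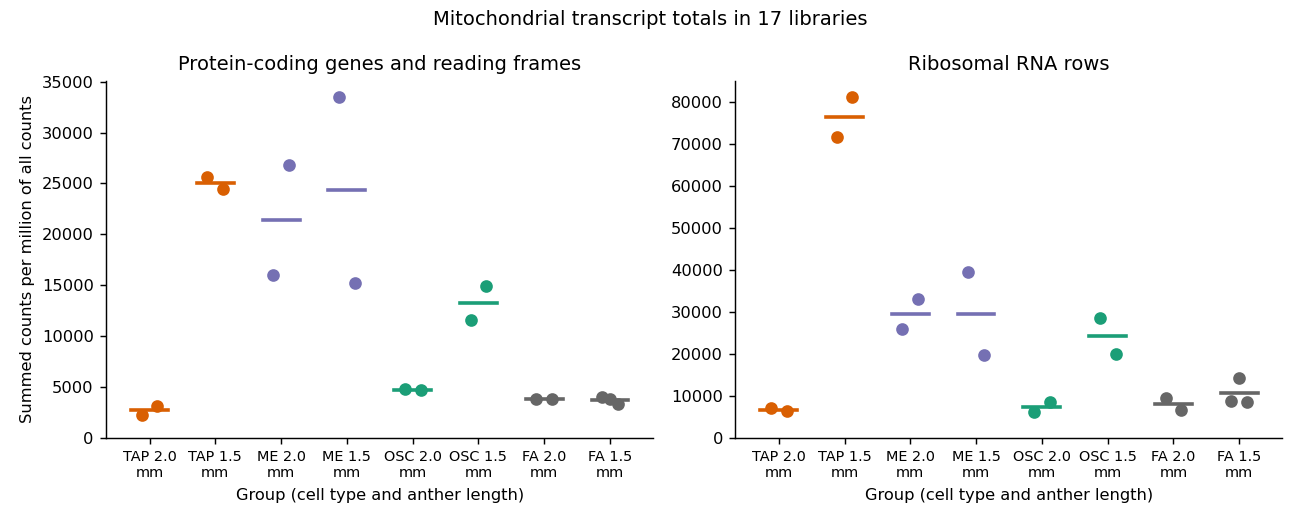
Summed CPM of the ZeamMp rows (left) and of the mitochondrial ribosomal RNA rows (right) in each of 17 libraries, by group; points are libraries and bars are group means. In both panels the TAP 2.0 mm libraries lie far below the TAP 1.5 mm libraries, and on the left the FA groups lie between 3284 and 4009 CPM at both lengths.

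A few rows carried most of the counts. The ribosomal protein gene rps1 had a mean share of 30.7% of the ZeamMp counts over the 8 groups, followed by the reading frame orf99-d (14.4%), cox3 (7.52%), the long reading frame orf1159 (6.20%), nad4 (4.05%) and cox1 (3.33%). Between 2 and 4 members made up 50% of the ZeamMp counts of a library, and 9 to 31 members made up 90%. The counts of the OSC 2.0 mm libraries were the most concentrated, with 9 and 11 members at 90%, while ME 2.0 mm replicate 1 and ME 1.5 mm replicate 1 needed 31 each. Per kilobase of row length the order began with rps1 (mean over groups 7544 CPM per kb), orf99-d (5273), cox3 (946.5), rps12 (850.4) and orf147-b (740.0). CEL-seq2 counts transcript ends, so neither scale gives molecules per gene exactly.

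By class, ribosomal protein genes took 38.4% of the ZeamMp counts as a mean over groups, unnamed reading frames 37.3%, complex IV 10.9%, complex I 5.17%, cytochrome c maturation 4.31%, ATP synthase 2.36%, the maturase 1.05% and complex III 0.0410%. Without rps1 in the total, the share of the ribosomal protein genes was 11.1% and that of unnamed reading frames 54.1%. The cytochrome c maturation class had group means from 2.74% (TAP 2.0 mm) to 4.89% (OSC 2.0 mm). Complex IV had 30.0 ± 0.0201% in TAP 2.0 mm against 6.49 ± 0.659% in TAP 1.5 mm, and 4.04 ± 0.0974% in FA 2.0 mm against 10.2 ± 0.860% in FA 1.5 mm (SD, n = 2, and 3 for FA 1.5 mm). In TAP 2.0 mm this class was mostly cox3, with 1419 and 2721 counts, beside 365 and 319 counts of cox1. The SD of 0.0201% is that of the class sum and not of each gene. Complex I took 3.62 ± 1.03% in TAP 2.0 mm against 9.84 ± 1.78% in TAP 1.5 mm, and 8.21 ± 0.782% in OSC 2.0 mm against 5.06 ± 1.11% in OSC 1.5 mm. ATP synthase took 0.721 ± 0.354% in OSC 2.0 mm against 3.16 ± 0.217% in OSC 1.5 mm (SD, n = 2 each).

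**Figure D2:**
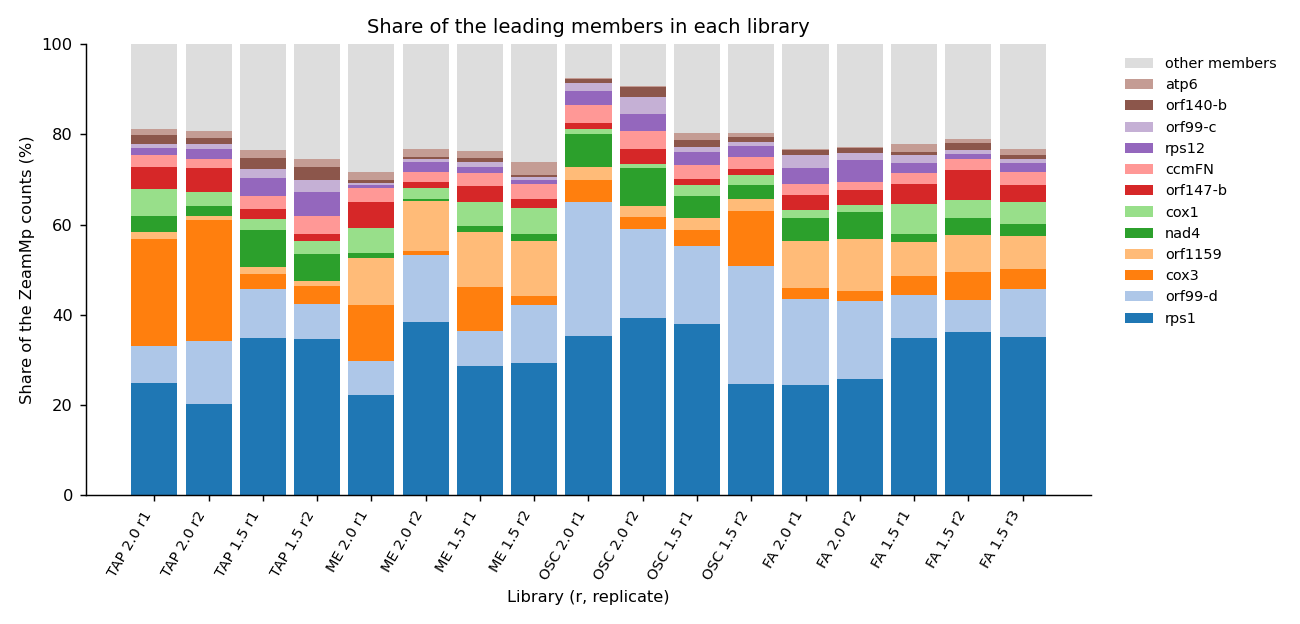
Share of the ZeamMp counts (%) held by the 12 leading members in each library, with all other members in grey. cox3 fills 23.6% and 26.7% of the TAP 2.0 mm bars against 3.46% and 3.99% of the TAP 1.5 mm bars, and orf1159 is wide in ME and FA and narrow in TAP and OSC.

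The make-up of the ZeamMp counts followed the group in most libraries. The summed overlap of the member shares was highest with a library of the same group for 12 of 17 libraries. The exceptions were ME 2.0 mm replicate 1, ME 2.0 mm replicate 2, ME 1.5 mm replicate 1 and both OSC 1.5 mm libraries, whose closest library was of the same cell type at the other length. In ME the replicates differed in cox3, which encodes subunit 3 of cytochrome c oxidase. It had 1972 and 216 CPM in the ME 2.0 mm libraries and 3259.9 and 290.1 CPM in the ME 1.5 mm libraries, high in replicate 1 and low in replicate 2 at both lengths. The edgeR adjusted p between lengths was 0.813, and spread of this size between replicates limits every ME result on cox3. Since the 12 captured libraries shared 1 estimate of spread per gene, it also enters the cox3 tests in TAP and OSC.

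Among the complex I genes, nad4 had the most counts in every library, and nad7, nad6 and nad4L had few. Per kilobase of row length nad4 and nad3 were alike, at 298 and 296 CPM per kb as means over groups. nad4 had 79.0 and 68.1 CPM in TAP 2.0 mm, against 2099 and 1419 CPM in TAP 1.5 mm. In ME it had 193 and 138 CPM at 2.0 mm and 427 and 239.7 CPM at 1.5 mm, and in OSC 351 and 387 CPM at 2.0 mm and 581 and 488 CPM at 1.5 mm. nad4 was thus highest in TAP 1.5 mm and lowest in TAP 2.0 mm among the captured groups. nad3 ranged from 10.5 to 489 CPM over the 17 libraries and nad9 from 1.14 to 251 CPM, and both were highest in TAP 1.5 mm too. nad7 reached at most 9.96 CPM, nad6 12.1 CPM and nad4L 3.58 CPM. nad1, nad2 and nad5, which plant mitochondria join from separate pieces, are not analysed here.

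For complex III, cob had only 131 counts over all libraries and reached at most 34.3 CPM (ME 1.5 mm replicate 1). For complex IV, cox1 encodes subunit 1 and had 137 and 98.8 CPM in TAP 2.0 mm, against 642 and 719 CPM in TAP 1.5 mm. In ME cox1 had 867 and 599 CPM at 2.0 mm and 1784 and 865 CPM at 1.5 mm, above every OSC and FA library. cox2 had 191 counts in all and was at 0 in both OSC 2.0 mm and both FA 2.0 mm libraries. For ATP synthase, atp6, which encodes the membrane subunit of the proton channel, led with up to 562 CPM, and atp8, atp4 and atp1-a1 followed with up to 218, 185 and 67.7 CPM. atp9, the subunit of the rotating ring, had 52 counts in all. Its row is the shortest of these, with 225 bases. The 2 rows for the repeated atp1 gene had 550 (atp1-a1) and 6 counts (atp1-a2), and reads shared by such copies may have been split between them or dropped.

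**Figure D3:**
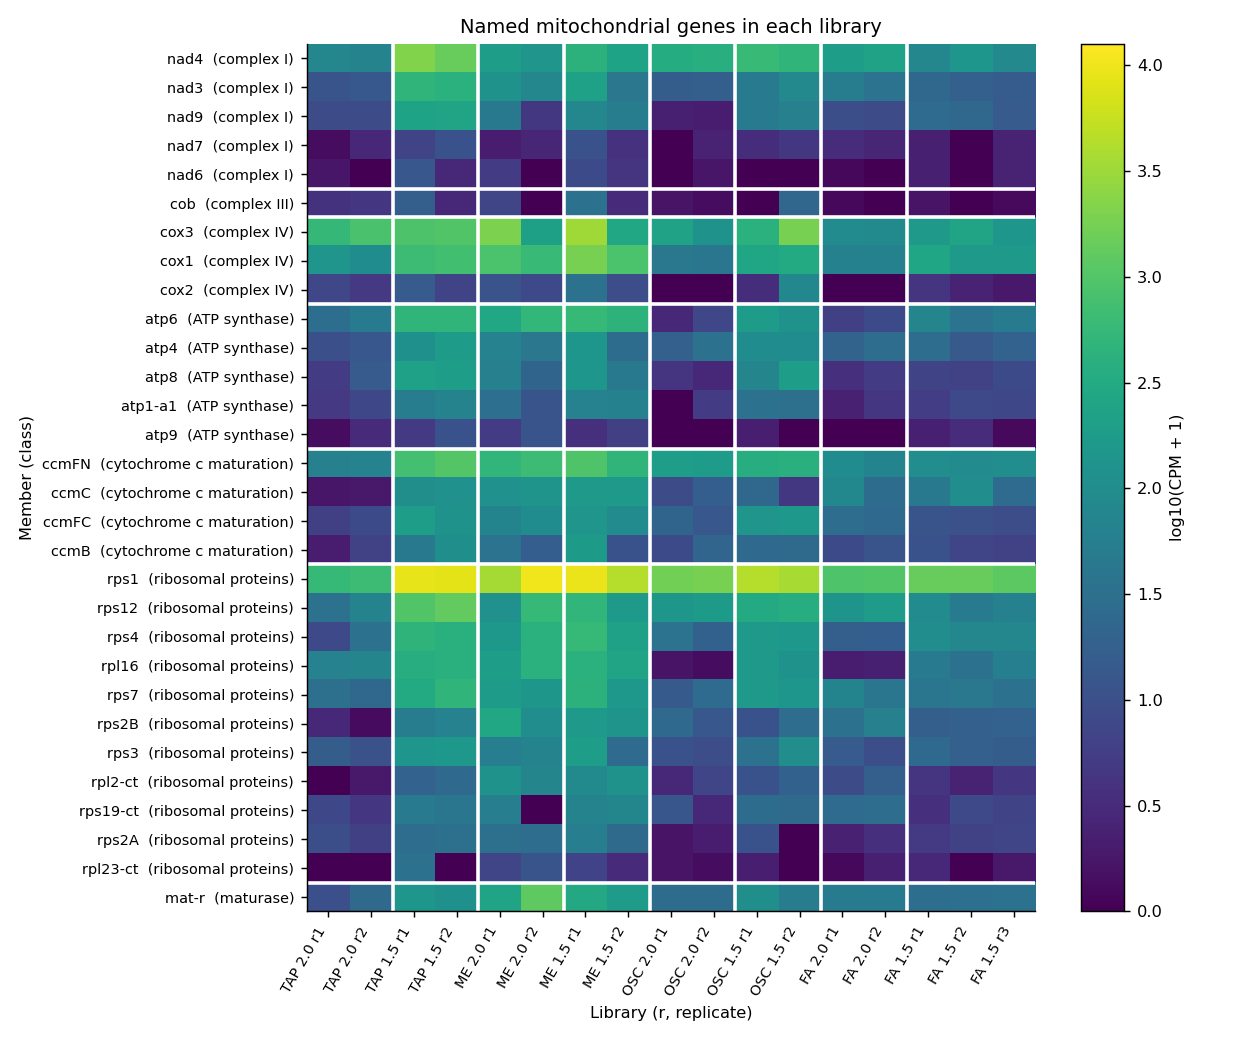
log10(CPM + 1) of the respiratory chain, ATP synthase, cytochrome c maturation, ribosomal protein and maturase members with at least 17 counts, by library; rows run from the largest to the smallest total within a class. The TAP 1.5 mm columns are the brightest for nad4, nad3, nad9 and rps12, and rpl16 and atp6 are dark in OSC 2.0 mm and FA 2.0 mm.

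Of the cytochrome c maturation genes, ccmFN, which takes part in joining haem to cytochrome c, was the most counted. It lay next to rps1 in RefSeq's order of genes, and its counts kept close to those of rps1: the ratio of ccmFN to rps1 ran from 0.0627 to 0.142 over 17 libraries, a 2.26-fold range, while rps1 itself ran from 562 to 10266 CPM. Other neighbours were less steady, with 11.0-fold for nad3 over rps12, a pair that plants transcribe together, 11.2-fold for orf147-b over cox1 and 9.42-fold for atp4 over orf99-d. These ratios are descriptions, and small counts widen some of them. ccmC, a membrane protein of the same pathway, had 0.752 and 0.929 CPM in TAP 2.0 mm, against 105 and 116 CPM in TAP 1.5 mm, and 119 and 132 CPM in ME 2.0 mm and 157 and 160.2 CPM in ME 1.5 mm.

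The ribosomal protein gene rps1 led its class in every library. It had 562 and 638 CPM in TAP 2.0 mm, against 8939.6 and 8478 CPM in TAP 1.5 mm, and 1691 and 1826 CPM in OSC 2.0 mm, against 4383 and 3694 CPM in OSC 1.5 mm. ME held 3546 and 10266 CPM at 2.0 mm and 9625 and 4470.4 CPM at 1.5 mm, and FA stayed between 920.2 and 1402 CPM. Its share was 22.5 ± 3.25% of ZeamMp counts in TAP 2.0 mm, against 34.8 ± 0.202% in TAP 1.5 mm, and 25.1 ± 0.881% in FA 2.0 mm, against 35.4 ± 0.748% in FA 1.5 mm (SD, n = 2, and 3 for FA 1.5 mm). Next came rps12, rps4, rpl16 and rps7, and rps13 had 16 counts in all. The maturase mat-r, which lies inside an intron of nad1 in plants and helps splicing, had 246 and 1199.7 CPM in ME 2.0 mm and 293 and 179 CPM in ME 1.5 mm, above every other library. Its share in ME 2.0 mm, 1.54% and 4.48%, was also the highest of all groups, though the replicates lay far apart.

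Of the 138 unnamed reading frames, 16 had no count. orf1159, whose row is 3480 bases long, set ME apart from the other captured cells. It had 36.9 and 30.6 CPM in TAP 2.0 mm, 353 and 281 CPM in TAP 1.5 mm, 1646 and 3004 CPM in ME 2.0 mm, 4070.3 and 1865 CPM in ME 1.5 mm, 148 and 121 CPM in OSC 2.0 mm and 300.5 and 399 CPM in OSC 1.5 mm. Every ME library was above every other captured library. As a share of ZeamMp counts, orf1159 took 10.3% to 12.3% in the 4 ME libraries, 7.45% to 11.4% in the 5 FA libraries, and 0.973% to 3.07% in the 8 TAP and OSC libraries. orf99-d had 187 and 439.9 CPM in TAP 2.0 mm and 1425 and 914 CPM in OSC 2.0 mm, and its share was highest in OSC (24.7 ± 7.10% in OSC 2.0 mm and 21.7 ± 6.16% in OSC 1.5 mm, SD with n = 2). Further down, orf147-b, which lies next to cox1, took 3.15% of ZeamMp counts as a mean over groups, orf99-c 1.48% and orf140-b 1.31%. orf147-b had 109.9 and 164 CPM in TAP 2.0 mm and 592 and 375 CPM in TAP 1.5 mm, and was not called (edgeR adjusted p = 0.18). orf140-b had 41.8 and 44.0 CPM in TAP 2.0 mm, against 614 and 707 CPM in TAP 1.5 mm, the highest of all groups. Symbols ending in a1 and a2 mark repeated copies, and reads from these cannot be assigned with certainty. orf115-a1 had 1408 counts in all and orf115-a2 461, and both were highest in ME.

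Members whose symbol ends in -ct are pieces of plastid DNA within the mitochondrial genome, and reads from plastid RNA may be counted on them. Of the 17 such rows, rbcL-ct, a piece of the plastid gene for the large subunit of Rubisco, had the most counts, with 118 and 148 CPM in ME 2.0 mm and at most 9.52 CPM in TAP 2.0 mm, OSC 2.0 mm and FA 2.0 mm.

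Among the captured cells, TAP had the most members called between anther lengths. Of 98 members that passed the filter on low counts in the captured libraries, edgeR called 34 lower and 0 higher at 2.0 mm at an adjusted p below 0.05, where 3.71% of 16940 rows were called in either direction, 2.85% lower and 0.868% higher. The median log2 fold change was -3.83 over the members and 0.00 over all rows tested. By role, 3 of 4 complex I genes tested fell, 0 of 1 in complex III, 1 of 3 in complex IV, 3 of 5 in ATP synthase, 3 of 4 in cytochrome c maturation, 7 of 11 among ribosomal proteins, 0 of 1 maturase and 17 of 68 unnamed reading frames. nad4 averaged 73.6 ± 7.71 CPM at 2.0 mm and 1759 ± 481 CPM at 1.5 mm (SD, n = 2 each; log2 fold change -4.54 ± 0.56 SE, edgeR adjusted p = 0.00141). rps1 averaged 599.7 ± 53.7 and 8709 ± 327 CPM (-3.83 ± 0.55, edgeR adjusted p = 0.00254), which is 14.5-fold lower at 2.0 mm. ccmFN fell 13.8-fold (-3.77 ± 0.53, edgeR adjusted p = 0.00238). ccmC fell to 5 counts in the 2 TAP 2.0 mm libraries, against 110 counts in the shallower TAP 1.5 mm libraries (-6.86 ± 0.98, edgeR adjusted p = 0.00254).

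The fall in TAP was uneven. nad3, nad9, rps12, rps4 and atp8 fell by over 4 on the log2 scale, at -5.24, -4.92, -4.45, -4.35 and -4.45, while cox1 and rpl16 fell by 2.50 and 2.42 (edgeR adjusted p from 0.00406 to 0.0334). cox3 had 534 and 842 CPM at 2.0 mm and 885 and 976 CPM at 1.5 mm, with a log2 fold change of -0.41 ± 1.01 (edgeR adjusted p = 0.909), so its share was 25.2 ± 2.21% at 2.0 mm against 3.72 ± 0.377% at 1.5 mm (SD, n = 2 each). Among called members, the largest fitted falls were in reading frames that were at 0 in both TAP 2.0 mm libraries: orf121-c, with 34.3 and 143 CPM in TAP 1.5 mm, was at least 86.4-fold lower at 2.0 mm when 0 is read as 3 counts per library. nad4, rps1, ccmFN and ccmC stayed called with any 1 of the 4 TAP libraries left out. The count of 34 was 8 without TAP 2.0 mm replicate 1, 6 without TAP 2.0 mm replicate 2, 19 without TAP 1.5 mm replicate 1 and 18 without TAP 1.5 mm replicate 2, and 55 when only the 4 TAP libraries were fitted.

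**Figure D4:**
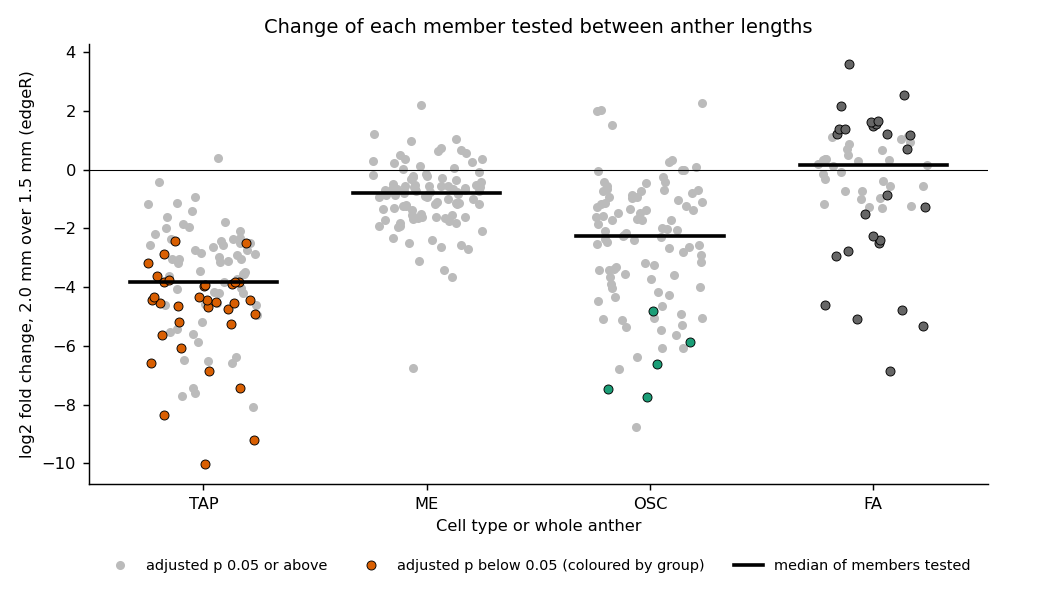
log2 fold change of each member tested, 2.0 mm over 1.5 mm, in TAP, ME, OSC (98 members each) and FA (57 members). Black bars are medians, coloured points have an edgeR adjusted p below 0.05 and grey points do not. TAP has a median of -3.83 and OSC of -2.26, while FA has called members on both sides of 0.

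In ME no member was called between lengths, where 0.00590% of rows were called. At an unadjusted p below 0.05 edgeR gave 5 members, and DESeq2 called 0. The median log2 fold change of the members was -0.78, beside -0.58 over all rows tested. mat-r, for instance, had a log2 fold change of 1.19 ± 0.72 (edgeR adjusted p = 0.557), and nad4 of -1.37 ± 0.49 (edgeR adjusted p = 0.268). The count was 0 with ME 1.5 mm replicate 2 left out as well.

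In OSC 5 members were called lower at 2.0 mm and 0 higher, where 0.289% of rows were called in either direction, 0.0885% higher and 0.201% lower, and the median was -2.26 over the members and 0.17 over all rows tested. The 5 were rpl16 and atp6, and the reading frames orf110-c, orf119-c and orf99-a1. rpl16, a protein of the large ribosomal subunit, had 0.664 and 0.379 CPM in OSC 2.0 mm, against 167 and 121 CPM in OSC 1.5 mm (log2 fold change -7.74 ± 0.82, edgeR adjusted p = 0.00176). In counts this is 2 against 170, a 321-fold lower pooled ratio with an exact interval from 87.5 to 2673. atp6 had 1.99 and 6.45 CPM in OSC 2.0 mm, against 179 and 121 CPM in OSC 1.5 mm (-4.83 ± 0.69, edgeR adjusted p = 0.0129). The leading genes were not called: rps1 had a log2 fold change of -0.93 ± 0.49 (edgeR adjusted p = 0.534), nad4 of -0.27 ± 0.48 (0.906), orf99-d of -1.02 ± 0.58 (0.572), orf1159 of -1.09 ± 0.49 (0.43), cox3 of -2.30 ± 1.06 (0.452) and cox1 of -2.54 ± 0.53 (0.0585). The 3 complex IV genes had a median of -2.54 and all had an unadjusted p below 0.05, as had 40 of all 98 members, but 0 were called. Complex IV thus did not stand out, since the ATP synthase genes had a median of -3.55. cox2 rested on 2 and 23 counts in the OSC 1.5 mm libraries. The count of 5 was 0 without either OSC 2.0 mm library and 1 without either OSC 1.5 mm library, and it was 13 and 14 without ME 1.5 mm replicate 1 and 2, 9 without either ME 2.0 mm library, and 24 when only the 4 OSC libraries were fitted.

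The genes that fell in OSC were also low in whole anthers of the same length. Picked after their values were seen, and so given without a test of the list, 6 members had group means in both OSC 2.0 mm and FA 2.0 mm that lay more than 4-fold below the lowest of the other 6 groups, itself at least 5 CPM. The smallest gap was 6.28-fold. The members were rpl16, atp6, orf110-c, orf106-b, orf119-c and orf99-a1. rpl16 had 1.13 and 1.30 CPM in FA 2.0 mm, against 45.9, 32.6 and 58.7 CPM in FA 1.5 mm, and 64.7 and 72.7 CPM in TAP 2.0 mm. orf110-c had 2.66 and 0 CPM in OSC 2.0 mm and 0.677 and 0.865 CPM in FA 2.0 mm, but 39.5 and 133 CPM in TAP 2.0 mm and 317 and 320.0 CPM in ME 2.0 mm. In captured cells of 2.0 mm anthers, each of the 6 had a higher CPM in every TAP and ME library than in either OSC library. This order follows largely from how they were picked. rps3, whose row overlaps that of rpl16 and which is co-transcribed with it in plants, had 9.97 and 8.35 CPM in OSC 2.0 mm and 13.8 and 8.65 CPM in FA 2.0 mm. Its ratio to rpl16 was 15.0 and 22.0 in OSC 2.0 mm and 12.2 and 6.67 in FA 2.0 mm, and at most 0.882 in the other 13 libraries. Reads in the overlap of rps3 and rpl16 cannot be assigned with certainty.

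**Figure D5:**
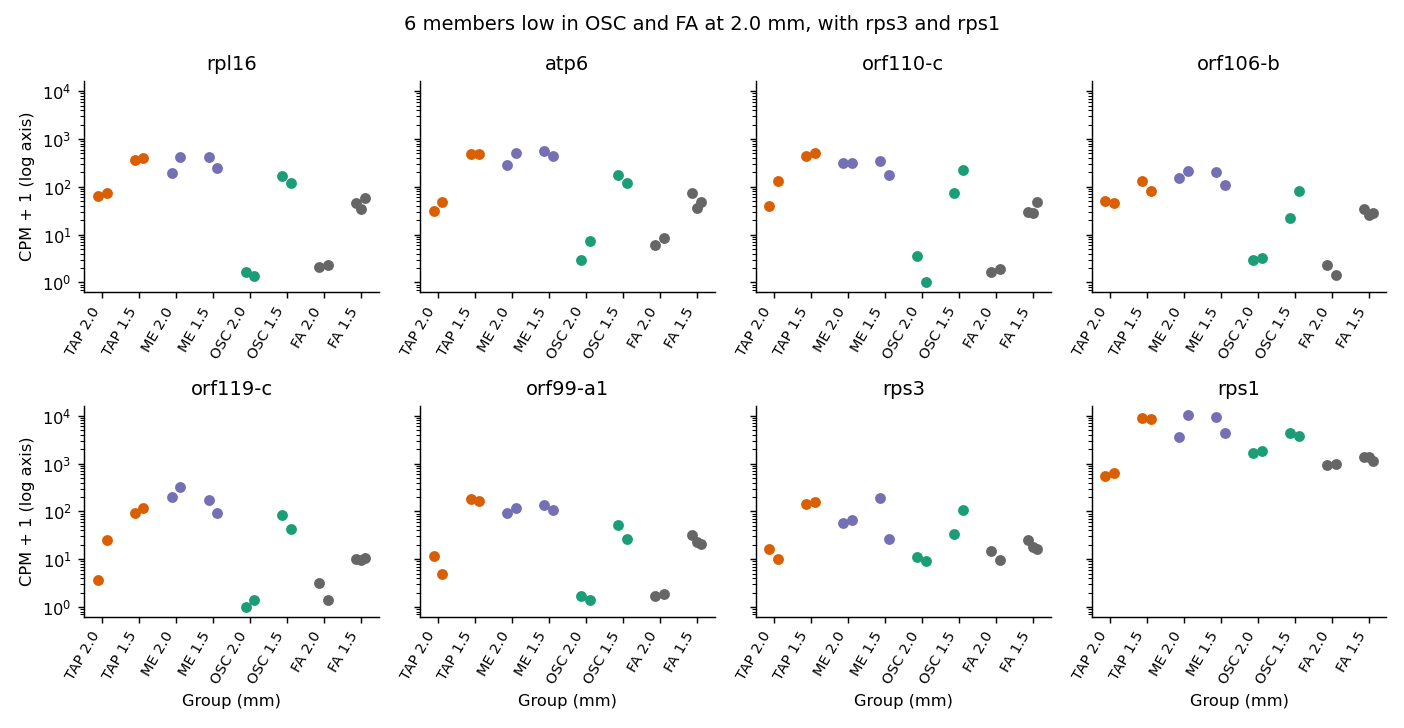
CPM + 1 (log axis) of the 6 members that were low in both OSC 2.0 mm and FA 2.0 mm, and of rps3 and rps1, in each library by group. For the 6 members the OSC 2.0 mm and FA 2.0 mm points lie below 9, whereas rps1 stays above 500 in every library.

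In whole anthers, where the ZeamMp sums of the lengths overlapped, members were called in both directions. Of 57 members tested in the 5 FA libraries, edgeR called 13 higher and 13 lower at 2.0 mm, where 29.7% of 16116 rows were called in either direction, 15.2% higher and 14.5% lower. orf261, annotated in RefSeq as a pseudogene and overlapping rps2B, had 136 and 192 CPM in FA 2.0 mm, against 16.4, 14.0 and 14.8 CPM in FA 1.5 mm (log2 fold change 3.59 ± 0.24, edgeR adjusted p = 1.83e-05). orf99-d, nad4, nad3, rps12, ccmFC and rps2B were higher at 2.0 mm too, by 1.20, 1.22, 1.48, 1.38, 1.63 and 1.55 on the log2 scale (edgeR adjusted p from 0.00161 to 0.00955). Lower at 2.0 mm were orf110-c (-5.33 ± 0.53), rpl16 (-5.07 ± 0.47), atp6 (-2.93 ± 0.42), rps4 (-2.26 ± 0.25), cox1 (-1.50 ± 0.26) and cox3 (-0.85 ± 0.25), with edgeR adjusted p from 0.000101 to 0.0278. By class, complex I had 2 of 3 members higher, complex IV 2 of 2 lower, and ribosomal proteins 4 higher and 2 lower of 10. rps1 had 920.2 and 974 CPM at 2.0 mm, against 1402, 1394 and 1151 CPM at 1.5 mm, and was not called (-0.31 ± 0.15, edgeR adjusted p = 0.141). The count of 26 was 16 without FA 1.5 mm replicate 3, and 10 (1 higher and 9 lower) when all 17 libraries shared 1 fit.

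At 2.0 mm, TAP stood below ME for most members. edgeR called 55 of 98 members lower in TAP and 0 higher, where 27.7% of rows were called in either direction, 9.66% lower and 18.1% higher, and the median log2 fold change was -3.23 over the members and 0.64 over all rows tested. orf1159 averaged 33.8 ± 4.40 CPM in TAP and 2325 ± 960.3 CPM in ME (SD, n = 2 each), a 68.9-fold lower level in TAP (log2 fold change -5.93 ± 0.59, edgeR adjusted p = 0.00014). mat-r averaged 16.9 ± 11.1 CPM in TAP and 723 ± 674 CPM in ME (-5.23 ± 0.86, edgeR adjusted p = 0.00122). orf114-b was at 0 in both TAP libraries and had 67.8 and 53.6 CPM in ME, at least 59.0-fold lower in TAP when 0 is read as 3 counts per library. cox3 (-0.58 ± 1.01, edgeR adjusted p = 0.724) and nad4 (-1.03 ± 0.49, edgeR adjusted p = 0.128) were not called. Of the 55 members, 22 stayed called with any 1 of the 4 libraries left out, among them rps1, ccmFN, ccmC, atp6, cox1, mat-r and orf1159, and the count was 29 and 28 without TAP 2.0 mm replicate 1 and 2.

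ME stood above OSC at 2.0 mm for 50 of 98 members and below it for 1, where 36.9% of rows were called in either direction, 8.95% higher and 27.9% lower. The median was 3.11 over the members and -1.40 over all rows tested. The single member below was nad4, with 193 and 138 CPM in ME, against 351 and 387 CPM in OSC (log2 fold change -1.51 ± 0.49, edgeR adjusted p = 0.0291), and with no scaling factors it was not called. Leaving out 1 of the 4 libraries gave an adjusted p from 0.0423 to 0.195 for it. cox1 averaged 733 ± 189.9 CPM in ME and 41.5 ± 2.37 CPM in OSC (3.78 ± 0.55, edgeR adjusted p = 0.000477), and rps1 6906 ± 4752 and 1758 ± 95.3 CPM (1.57 ± 0.50, edgeR adjusted p = 0.0269; SD, n = 2 each). rpl16 had 420 counts in ME and 2 in OSC, a pooled ratio of 567 with an exact interval from 156 to 4698, and atp6 was 94.5-fold higher in ME. orf115-a2 was at 0 in both OSC libraries and had 38.0 and 87.6 CPM in ME, at least 40.1-fold higher when 0 is read as 3 counts per library. It passed the low-count filter only through the ME libraries, so its direction is tied to that filter. Of the 51 calls, 14 stayed with any 1 of the 4 libraries left out, and the count was 18 and 26 without OSC 2.0 mm replicate 1 and 2 and 32 without ME 2.0 mm replicate 2.

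Between TAP and OSC at 2.0 mm the calls went both ways, with 6 of 98 members higher and 12 lower in TAP, where 15.0% of rows were called in either direction, 2.45% higher and 12.5% lower. The share of members called lower was thus close to that of all rows. With library totals and no scaling factors the split was 7 higher and 8 lower. Higher in TAP were rpl16 (log2 fold change 6.71 ± 0.80, edgeR adjusted p = 0.000253), atp6, orf110-c, orf106-b, orf119-c and orf99-a1. These are the 6 members picked above for being low in OSC 2.0 mm and FA 2.0 mm against all other groups, so their direction here follows largely from that choice. Lower in TAP were 12 members, with the largest fall by the rule in rps2B, which had 1.88 and 0.310 CPM in TAP, against 24.6 and 11.8 CPM in OSC (-4.21 ± 0.997, edgeR adjusted p = 0.0142). nad4 was 5.02-fold lower (-2.55 ± 0.51, edgeR adjusted p = 0.00562) and rps1 2.93-fold lower (-1.78 ± 0.50, edgeR adjusted p = 0.0315). rpl16 and orf110-c stayed called with any 1 of the 4 libraries left out. The count of 18 was 7 and 4 without TAP 2.0 mm replicate 1 and 2, and 7 without either OSC 2.0 mm library.

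At 1.5 mm fewer members were called between cell types, and the share of all rows called was lower too. TAP against ME gave 1 of 98 members higher and 6 lower, where 17.1% of rows were called in either direction, 10.0% higher and 7.13% lower, and 1 higher and 3 lower with RLE factors or library totals. Members were thus not called more often here than rows in general. nad4 was the one higher, with 2099 and 1419 CPM in TAP, against 427 and 239.7 CPM in ME (log2 fold change 2.13 ± 0.50, edgeR adjusted p = 0.0129). The largest fall was in orf115-a2, a repeated reading frame, with 1 count in TAP, against 349 counts in ME (-6.27 ± 1.46, edgeR adjusted p = 0.0138), a pooled ratio of 67.9 in favour of ME with an exact interval from 12.1 to 2689. Only its ME libraries brought it past the low-count filter, so its direction is tied to that filter. orf1159 was 9.36-fold lower in TAP (-3.48 ± 0.53, edgeR adjusted p = 0.00205) and alone of the 7 stayed called with any 1 of the 4 libraries left out. The count of 7 was 1 without either TAP 1.5 mm library, 7 without ME 1.5 mm replicate 2, and 0 when only the 4 libraries were fitted.

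ME against OSC at 1.5 mm gave 15 members higher and 0 lower, where 23.8% of rows were called in either direction, 7.49% higher and 16.3% lower. orf1159 averaged 2967 ± 1559.6 CPM in ME and 349.7 ± 69.6 CPM in OSC (SD, n = 2 each; 3.37 ± 0.53, edgeR adjusted p = 0.00118), and it alone stayed called with any 1 of the 4 libraries left out. cox1 was 4.48-fold and ccmC 12.4-fold higher in ME (edgeR adjusted p = 0.00574 and 0.00748). The largest fitted rise was in orf149-b, with 21.9 and 10.0 CPM in ME and 0 in both OSC libraries, at least 2.22-fold higher when 0 is read as 3 counts per library. The count of 15 was 26 without ME 1.5 mm replicate 2, and 2 and 5 without OSC 1.5 mm replicate 1 and 2. TAP against OSC at 1.5 mm gave no call by edgeR, where 2.86% of rows were called in either direction, 0.614% higher and 2.24% lower, with 21 members at an unadjusted p below 0.05. DESeq2 called 7 members higher in TAP, and edgeR called 21 higher when only the 4 libraries were fitted, 6 without either ME 1.5 mm library and 1 without either ME 2.0 mm library.

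Captured cells stood above whole anthers at 1.5 mm. Over ME, TAP and OSC together, 63 of 103 members were called higher than in FA and 0 lower, where 14.6% of 18310 rows were called in either direction, 2.92% higher and 11.6% lower, and the median was 2.80 over the members and -0.46 over all rows tested. Members could pass the low-count filter through the captured groups alone, and only 57 passed in the 5 FA libraries by themselves. The direction of these calls follows in part from that filter. ccmFC averaged 141 ± 33.7 CPM in the captured libraries (n = 6) and 9.41 ± 1.03 CPM in FA (SD, n = 3; log2 fold change 4.21 ± 0.44, edgeR adjusted p = 4.3e-05), and nad4 875 ± 726 and 101 ± 33.6 CPM (3.09 ± 0.34, edgeR adjusted p = 4.91e-05). The 6 captured libraries are of 3 cell types, so their SD also holds differences between cell types. The log2 fold change compares the mean of the cell types on the log scale with FA. The reading frame orf106-a1 had the largest rise among called members whose libraries did not overlap and whose mean was at least 20 counts, with 8.58 to 29.9 CPM in the 6 captured libraries and 1.31, 0.776 and 0.291 CPM in FA (5.02 ± 0.86, edgeR adjusted p = 0.00123). cob had a larger fitted value (5.13 ± 1.51, edgeR adjusted p = 0.0314), with 101 counts in captured cells, 2 in FA and libraries that overlapped. The 63 included 10 of 11 ribosomal protein genes, 3 of 3 complex IV genes and 4 of 5 ATP synthase genes. The count was 35, 34 and 33 without FA 1.5 mm replicate 1, 2 and 3. Whole anthers hold cells that were not captured, and capture itself, the amount of RNA and the cell types cannot be told apart here.

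At 2.0 mm 11 of 103 members were higher in captured cells and 2 lower, where 11.5% of rows were called in either direction, 0.448% higher and 11.1% lower, and 8 higher and 5 lower with library totals. The limit set by the low-count filter holds here too. As the mean of the 3 cell types, orf106-b (log2 fold change 4.90 ± 0.71, edgeR adjusted p = 0.000575) and rpl16 (4.37 ± 0.65, edgeR adjusted p = 0.000633) were higher in captured cells, with at most 2.28 and 0.664 CPM in OSC. Both were picked above for being low in OSC 2.0 mm and FA 2.0 mm, so their direction here follows in part from that choice. For rpl16 both OSC libraries lay below the FA mean of 1.21 CPM. orf261 was lower in captured cells taken as the mean of the 3 cell types on the log scale (-2.53 ± 0.40, edgeR adjusted p = 0.00114), with 3.39 and 1.55 CPM in TAP, 28.6 and 22.8 CPM in OSC, 142 and 297 CPM in ME and 136 and 192 CPM in FA. The count of 13 was 4 and 7 without FA 2.0 mm replicate 1 and 2, and 20 without either ME 1.5 mm library. The comparisons above share libraries with each other, so their counts are not independent.

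The change with length was also compared directly between cell types. TAP against ME gave 0 members with a higher and 5 with a lower length change in TAP, where 1.12% of rows were called in either direction, 0.791% higher and 0.325% lower. These were ccmC, orf261, rps1, nad4 and ccmFN. TAP against OSC gave 1 higher (rpl16) and 3 lower (ccmC, orf261 and nad4), where 0.809% of rows were called in either direction, 0.118% higher and 0.691% lower. OSC against ME gave 0 higher and 1 lower (rpl16), where 0.0177% of rows were called in either direction, 0.00590% higher and 0.0118% lower. None of these calls stayed with each of the libraries compared left out in turn, and their values stand in the closing section.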

How the data were processed

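Anther libraries made by CEL-seq2 were aligned by the authors with HISAT2 after trimming with fastp and Trim Galore, per the submitters' processing notes. Their versions, the genome build, the counting tool, its use of strand and of molecular identifiers are not given in the sources used here. The authors deposited raw counts per gene, with the row length in bases, in 1 table of 17 libraries, and 1 line without a gene name was left out. Rows were taken by the ZeamMp prefix. CPM is the count per 1000000 counts of a library, and a share is the count over the ZeamMp total. Symbols, biotypes and overlaps came from RefSeq (Zm-B73-REFERENCE-NAM-5.0), and 169 of 175 row lengths were equal to RefSeq's. Here 45 members overlap another row and are uncertain. Another 6 ZeamMp rows of RefSeq, pieces of nad1, nad2, nad5 and rps3, are not analysed here.

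Counts were tested with edgeR 4.0.16 (R 4.3.3, limma 3.58.1): filterByExpr with a minimum count of 10 and a minimum total of 15, TMM factors, glmQLFit and glmQLFTest. Cell types and lengths were compared in 1 fit of the 12 captured libraries, FA lengths in a fit of the 5 FA libraries, and captured cells against FA in a fit of all 17. P-values were adjusted by Benjamini-Hochberg over all rows tested (threshold 0.05), and percentages of called rows are over the same rows. Folds printed beside a log2 fold change are ratios of mean CPM, while the log2 values are TMM-scaled fits. The scripts were tested on simulated data. Biological coefficients of variation were 70.6% in the captured and 29.5% in the FA fit, and floors and exact 95% intervals cover counting error only. Alternatives were RLE factors, library totals, factors from nuclear rows, no filter, a replicate block, DESeq2 1.42.0, other sets of libraries, each library left out, and totals per 1000000 nuclear counts or without rps1.

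Members and lists were chosen with earlier results of these data known. Named genes were the 12 members with the largest mean share, the top member of each class, all nad, cob, cox and atp genes, and in each comparison the called member with the largest rise and the largest fall among those with replicates that do not overlap and a mean of at least 20 counts. The genes rps3, rps4, rps7, rps13, ccmFC, orf99-a1, orf115-a1 and orf119-c were named after their values were seen.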

Additional observations from a re-analysis of the deposited data

Results flagged for a closer look

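The change with anther length differed between cell types in 10 tests of single members, by edgeR's interaction term adjusted over all 16940 rows. Between TAP and ME, 5 of 98 members differed, where 1.12% of rows did, and all 5 had a lower log2 fold change with length in TAP than in ME. The differences in log2 fold change were -6.13 ± 1.17 for ccmC (edgeR adjusted p = 0.0274), -4.96 ± 1.05 for orf261 (0.0387), -3.40 ± 0.71 for rps1 (0.0377), -3.16 ± 0.70 for nad4 (0.0449) and -3.07 ± 0.69 for ccmFN (0.0487). Between TAP and OSC, 4 members differed, where 0.809% of rows did. The log2 fold change was lower in TAP for ccmC (-6.82), orf261 (-6.27) and nad4 (-4.27) and lower in OSC for rpl16 (a difference of 5.32), with edgeR adjusted p from 0.0248 to 0.0298. For orf261 the log2 fold change was -4.74 in TAP (edgeR adjusted p = 0.00641), 0.21 in ME and 1.53 in OSC, the last 2 not called. Between OSC and ME, 1 member differed, where 0.0177% of rows did: rpl16, with -7.22 ± 0.98 (edgeR adjusted p = 0.0286).

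None of these 10 calls stayed when each of the libraries compared was left out in turn. The count of 5 between TAP and ME was 0 without any 1 of the 4 TAP libraries, 1 without any 1 of the 4 OSC libraries, 17 without ME 1.5 mm replicate 1 and 9 without ME 2.0 mm replicate 1. The count of 4 between TAP and OSC was 0 without any 1 of the 8 TAP and OSC libraries, 11 and 12 without ME 1.5 mm replicate 1 and 2, and 9 without either ME 2.0 mm library. The count of 1 between OSC and ME was 0 without any 1 of the OSC libraries or of the TAP 1.5 mm libraries, 2 without either TAP 2.0 mm library, 4 without either ME 1.5 mm library and 3 without ME 2.0 mm replicate 1. The cause was not tested.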

How the results depend on the processing

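The 18 log2 fold changes with the largest rise or fall of a comparison, which cover 12 of the named members, were recomputed under the alternatives. None reversed, but several became weaker under part of the alternatives. For rpl16 and ccmC in the length difference between TAP and OSC, 8 alternatives were weaker and 8 the same. For nad4 in ME against OSC at 2.0 mm, 6 were weaker and 6 the same. Others never weakened, such as orf261 for FA length (12 the same, 0 weaker). The other named members were not recomputed. The counts of called members that moved by over 1.5 times were as follows, and the cause was not tested. For TAP against ME at 1.5 mm, 7 became 4 with RLE factors and with library totals, 12 with all 17 libraries in 1 fit and 0 with only the libraries compared. ME against OSC at 1.5 mm went to 31 and TAP against OSC at 2.0 mm to 28 with all 17 libraries. TAP against OSC at 1.5 mm gave 1 with no filter, 7 with DESeq2, 8 with all 17 libraries and 21 with only the libraries compared. For length in TAP the counts were 58, 56 and 55 (DESeq2, all 17 libraries, only the libraries compared). For length in OSC they were 8 (RLE), 9 (library totals), 13 (no filter), 19 (DESeq2), 17 (all 17 libraries) and 24 (only the libraries compared). FA length gave 10 with all 17 libraries. Captured cells against FA at 2.0 mm gave 23 with DESeq2 and 7 with only the libraries compared. The difference in length change between TAP and ME gave 11 (RLE), 17 (no filter), 40 (DESeq2), 28 (all 17 libraries) and 0 (only the libraries compared), that between TAP and OSC 11 (no filter), 13 (DESeq2), 10 (all 17 libraries) and 13 (only the libraries compared), and that between OSC and ME 5 (no filter), 11 (DESeq2), 6 (all 17 libraries) and 0 (only the libraries compared).

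Same-numbered replicates did not deviate together, with correlations between -0.209 and 0.125, so the numbers were not taken as pairs. With the replicate block, TAP against ME at 1.5 mm gave 4, FA length 16, captured cells against FA 8 at 2.0 mm and 28 at 1.5 mm, the TAP and ME difference 1 and the OSC and ME difference 0, and no other count moved by over 1.5 times. A crossed pairing of the ME libraries, added after the data were seen, gave 0 for ME length.

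With 1 library left out, the counts ranged from 28 to 67 (TAP against ME), 18 to 59 (ME against OSC) and 4 to 22 (TAP against OSC) at 2.0 mm, from 1 to 8, 2 to 26 and 0 to 6 for the same pairs at 1.5 mm, from 6 to 48 for length in TAP, 0 to 14 in OSC, 0 to 0 in ME and 16 to 29 in FA, from 4 to 20 and 33 to 70 for captured cells against FA at 2.0 and 1.5 mm, and from 0 to 17, 0 to 12 and 0 to 4 for the differences between TAP and ME, TAP and OSC, and OSC and ME. Where 1 library remained in a group, it was assumed to vary like the others.

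Per 1000000 nuclear counts, the ZeamMp total was 28759 in TAP 1.5 mm and 3827 in FA 2.0 mm. Without rps1 it was 16315 CPM in TAP 1.5 mm, 2964 in OSC 2.0 mm, 9199.6 in OSC 1.5 mm, 2827 in FA 2.0 mm and 2395 in FA 1.5 mm, and the class shares were 7.64% (complex I), 3.42% (ATP synthase), 6.31% (cytochrome c maturation), 11.1% (ribosomal proteins), 54.1% (unnamed reading frames) and 0.562% (others). Scaling moved the median of all rows, from 0.64 (TMM) to 0.22 (RLE) for TAP against ME at 2.0 mm, from -1.40 (TMM) to -1.04 (library totals) for ME against OSC at 2.0 mm, and from -0.58 (TMM) to -0.02 (RLE) for ME length. For captured cells against FA at 2.0 mm, factors from nuclear rows gave 8 higher and 6 lower. Depth limits the low rows: 122 of 175 members had at least 17 counts in all, which is 1 per library on average.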
